A study of Mus musculus with 6 samples.

Results

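The genes described here are 54 genes of mitosis, chosen by name, whose products build kinetochores and spindles, guard chromosome segregation and complete cytokinesis. The array carried 72 probes for them, of 55681 probes that were not controls, and 24239 genes with a symbol in all. Livers of B6C3F1 male mice, 7 weeks of age in the labels, were compared after 5 days of oral trichloroethylene (TCE), an organic solvent, at 1000 mg/kg b.w. per day (3 mice) or of corn oil, the vehicle given by gavage to both groups (3 control mice). Each mouse had 1 array, and whole liver RNA was labelled, so a signal is an average over every cell type of the organ and covers 1 dose and 1 time only. The values are log2 signals after quantile normalization, and a difference of 1 on this scale is a 2-fold difference.

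When a cell divides, its chromosomes condense, and a kinetochore assembles on each centromere and binds the microtubules of the spindle. The spindle assembly checkpoint holds back the anaphase-promoting complex (APC/C) until every kinetochore is attached, and a central spindle then sets the plane of cytokinesis. Transcripts of most of these genes accumulate late in the cell cycle, and hepatocytes of an adult liver rarely divide.

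The mitosis genes were higher in the liver of TCE-treated mice. The threshold was a limma adjusted p of 0.05 together with a 2-fold difference, and a gene entered the test if every mouse of either group gave a signal well above background, as the scanner software calls it for each spot. Of the 54 genes, 36 could be tested and 21 were past the threshold, with 21 up-regulated and 0 down-regulated by limma, where 1.3% of the 13283 tested genes were up-regulated and 0.429% were down-regulated. At an unadjusted p under 0.05 by limma, 29 of the 36 were higher in TCE mice, beside 12.0% of all tested genes, and 0 were lower, beside 7.11%. The methods' t-test also gave 29 and 0. The 36 include 8 genes with no control array well above background and 5 with only some. These entered the test only through their TCE arrays, and all of them are among the 29 by limma. Since a gene that is dim in control mice enters the test only through its TCE arrays, the 23 mitosis genes measured well above background in every mouse are given apart. Of these 23, 10 were up-regulated, where 0.905% of the 12483 genes measured in every mouse were. Fewer dividing cells in control liver and less RNA of these genes per cell cannot be told apart in such bulk samples.

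Over the 23 genes measured in every mouse, the median log2 difference was 0.86, and 20 were higher in TCE mice, compared with a median of 0.02 and 53.2% of all genes measured in every mouse. Of those genes, 2.36% had a larger difference than this median. Over the 54 genes the median was 1.27, and 50 were higher, while the median over all genes was 0.01. With genes dim in a whole group set at their lower limit, or at 0 where they had none, it was 0.79. All 3 TCE mice lay above all 3 control mice for 38 of the 54 genes, against 11.6% of all genes on the array, and for 16 of the 23, against 16.7% of all genes measured in every mouse. For no member did all 3 TCE mice lie below all 3 control mice, an order found for 7.37% of all genes.

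**Figure D1:**
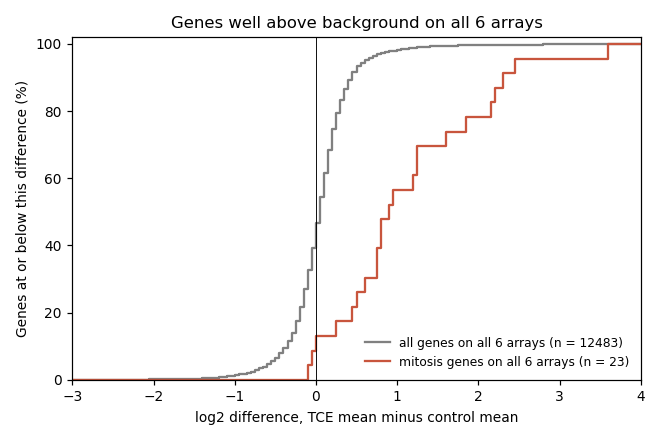
Cumulative share of genes (vertical axis, percent) at or below each log2 difference between the TCE mean and the control mean (horizontal axis), for the 23 mitosis genes and for the 12483 genes well above background on all 6 arrays. The curve of the mitosis genes lies to the right, with a median of 0.86 against 0.02.

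Signals were close among mice of a group. Control mice had a median SD of 0.14 over the 23 genes and TCE mice one of 0.19, beside 0.14 and 0.18 for all genes measured in every mouse. Relative to the control mean, their median difference was 0.90, 0.74 and 0.86 in TCE mice 1, 2 and 3, so that all 3 TCE mice lay above the controls by a like amount. Among the 21 genes past the threshold these values were 2.22, 2.47 and 2.34. TCE mouse 1 was the lowest TCE mouse for 14 of the 21, and TCE mouse 3 the highest for 11.

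Between 23538 and 24971 probes were well above background per array, and 0 spots of the arrays were saturated. Control mouse 1 was alone on its slide, and the other 5 arrays shared a slide and scan. The 10 hepatocyte markers were well above background in every mouse and 0 were past the threshold by limma (at an unadjusted p under 0.05, 1 was higher and 1 lower), with summed signals of 2213034 to 2334833 in control mice and 2169149 to 2388828 in TCE mice. Of other cells that could hold dividing nuclei, the 14 T, B and NK cell markers summed to 16532 to 20147 in control and 6216 to 16164 in TCE mice, with Cd3g, Cd8a, Ms4a1, Ncr1 and Klrb1c not well above background on any array. The 10 erythroid markers summed to 206749 to 278420 and 155237 to 201650, with Epb4.2 on no array, so both sums were lower in TCE mice, and 0 of their genes were past the threshold by limma. At an unadjusted p under 0.05 by limma, 1 of 5 tested lymphoid and 2 of 7 tested erythroid markers were lower and 0 higher. Most of the lymphoid sum came from the Cd4 probe and most of the erythroid sum from the Hemgn probe, while Ptprc and Cd79a were higher in TCE mice by 0.65 and 0.40 and did not pass. Alas2, the erythroid enzyme of heme synthesis, fell by 0.91 on the log2 scale, below 2-fold (limma adjusted p = 0.0215). The 10 markers of neutrophils and myeloid precursors summed to 1416 to 1919 and 1820 to 2281. Of these, Prtn3 was up-regulated, at least 3.05-fold (limma adjusted p = 0.0234), a call lost in 5 of the 6 fits that left out a mouse. S100a8, with groups apart, differed by 1.19 and did not pass (limma adjusted p = 0.0886), while Mpo, Ltf and Ngp were on no array. The 12 macrophage, 10 stellate, 10 endothelial and 9 bile duct markers had overlapping sums, and 0 of them were past the threshold by limma, with 3 at an unadjusted p under 0.05, all lower in TCE mice. All unadjusted marker counts are to be read beside 12.0% of tested genes higher and 7.11% lower in TCE mice by limma. The part of cell makeup in the values of the mitosis genes was not tested.

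The promoters of these genes are shown for 5 of them, because genes that move together in the cell cycle often share a CHR element and CCAAT boxes near the start. The letters searched on both strands were TTTGAA or TTCGAA for the CHR element and CCAAT for the box, which do not share a stretch long enough to be counted as each other. RefSeq promoter windows (GRCm38.p6, 250 bases before to 50 after the start) were found for 45 of the 54 genes, as 50 promoters. Those of Spc24, Aurkb, Incenp, Tpx2, Kif20a, Smc4, Foxm1, Cdc25c and Pbk were not matched. The 200 bases before the start are printed 5′ to 3′ for the up-regulated genes measured in every mouse with the largest differences, Cdc20, Mki67 and Birc5, and for Ncaph and Pttg1, which did not pass the test and held no match. Capitals mark both motifs, read on either strand, so that the CCAAT box appears as ATTGG where it lies on the opposite strand.
Cdc20, chr4:118437344-118437543, minus strand: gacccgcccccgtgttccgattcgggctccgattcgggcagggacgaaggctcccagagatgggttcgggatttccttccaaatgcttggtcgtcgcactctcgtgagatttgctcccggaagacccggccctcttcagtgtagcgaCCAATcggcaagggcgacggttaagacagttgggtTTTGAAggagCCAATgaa
Mki67, chr7:135716380-135716579, minus strand: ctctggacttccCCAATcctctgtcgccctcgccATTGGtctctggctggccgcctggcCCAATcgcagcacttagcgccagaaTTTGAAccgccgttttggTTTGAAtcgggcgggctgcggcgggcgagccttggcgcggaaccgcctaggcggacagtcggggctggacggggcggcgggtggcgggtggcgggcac
Birc5, chr11:117849037-117849236, plus strand: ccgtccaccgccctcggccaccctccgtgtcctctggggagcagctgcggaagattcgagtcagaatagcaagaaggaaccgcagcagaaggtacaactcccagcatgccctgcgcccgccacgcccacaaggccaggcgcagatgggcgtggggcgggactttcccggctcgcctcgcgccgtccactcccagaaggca
Ncaph, chr2:127133955-127134154, minus strand: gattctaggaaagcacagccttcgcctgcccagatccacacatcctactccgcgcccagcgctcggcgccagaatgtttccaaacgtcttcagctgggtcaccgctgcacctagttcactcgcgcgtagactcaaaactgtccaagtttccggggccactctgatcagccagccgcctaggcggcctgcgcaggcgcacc
Pttg1, chr11:43425982-43426181, minus strand: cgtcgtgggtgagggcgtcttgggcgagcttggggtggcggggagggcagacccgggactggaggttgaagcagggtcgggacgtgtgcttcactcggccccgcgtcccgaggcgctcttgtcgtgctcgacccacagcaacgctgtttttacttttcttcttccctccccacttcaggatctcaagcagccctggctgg

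A CHR element was present in 36 of the 50 promoters (72%), where 19.2% of all 32851 promoters held one. CCAAT boxes were in 37 (74%), beside 37.4% of all promoters, and 31 (62%) held both, beside 7.52%. Among genes up-regulated in TCE mice, 14 of 18 with a promoter had the CHR element (77.8%), and among those not past the threshold, 19 of 27 (70.4%). In a wider list of mitosis genes, described at the end, 43 of 101 promoters had it (42.6%). Sites were counted once per promoter, so overlapping windows of Bub3, Ect2 and Prc1 repeat some of them. Of 48 CHR elements so counted 36 began within 50 bases of the start, at a median of -1.5, while the 77 CCAAT boxes had a median of -65. Positions in other promoters were not compared. In the sequences of Cdc20 and Mki67 printed above, CCAAT boxes lie upstream of the CHR element, and in Cdc20 a further box lies downstream of it. The windows of Birc5, Mad2l1 and Nusap1, all up-regulated, held neither motif. A match of letters is a description of sequence, not of binding, and base composition was not matched between the promoters.

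**Figure D2:**
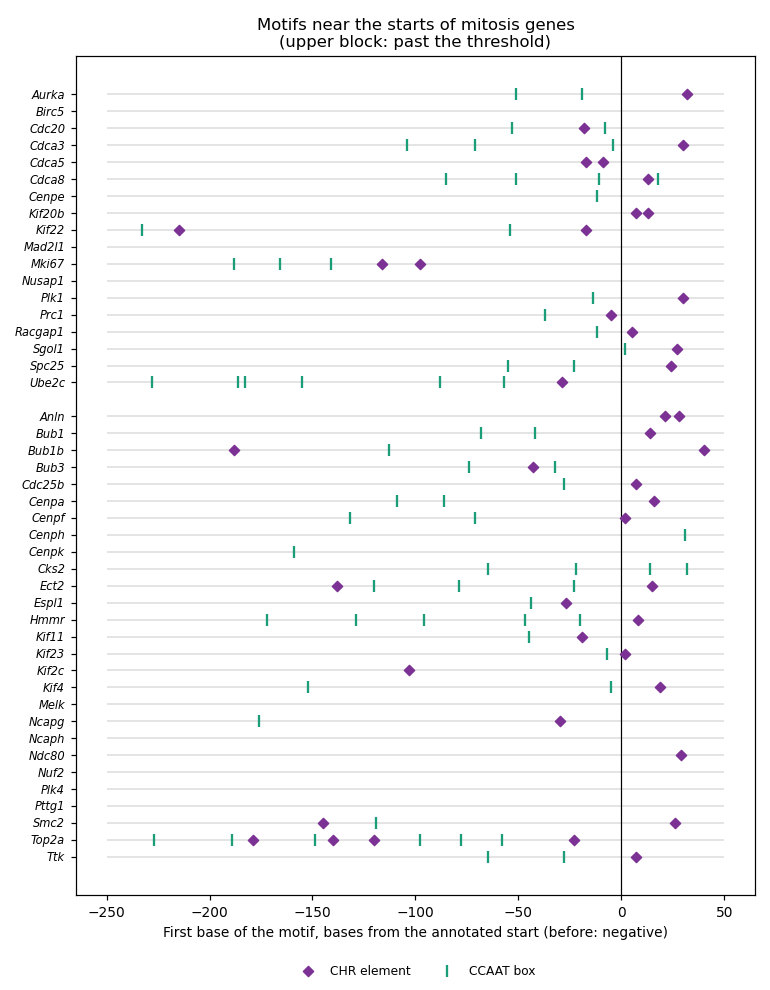
Position of each CHR element (diamonds) and CCAAT box (bars) relative to the annotated start of 45 mitosis genes (bases, horizontal axis), with the genes past the threshold in the upper block and, for genes with several starts, the first one listed with a match. Of 48 CHR elements, counted once per promoter of these genes, 36 lie within 50 bases of the start.

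Among the 21 up-regulated genes, 10 were measured in every mouse, 3 had some control arrays above background, and 8 had none. For the 8, the rise is given as a lower limit, the TCE mean against the higher of each control array's own signal and its lowest signal called well above background. Those floors were 4.52, 4.52 and 4.75 in control mice 1, 2 and 3. A limma p-value printed beside a limit, also for Prtn3 above, tests the full difference from the dim control signals, not the limit. These genes entered the test only through their TCE arrays. The limits hold for the processed signal only. With normexp background correction, which adds an offset of 50 to each signal, the log2 differences of the 8 ran from 0.66 for Nusap1 to 1.77 for Prc1, with 1.56 for Plk1 and 1.06 for Cenpe. Those of the 10 genes measured in every mouse then ran from 0.76 for Kif22 to 2.42 for Cdc20. Probe positions are those of the array design on mm9.

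**Figure D3:**
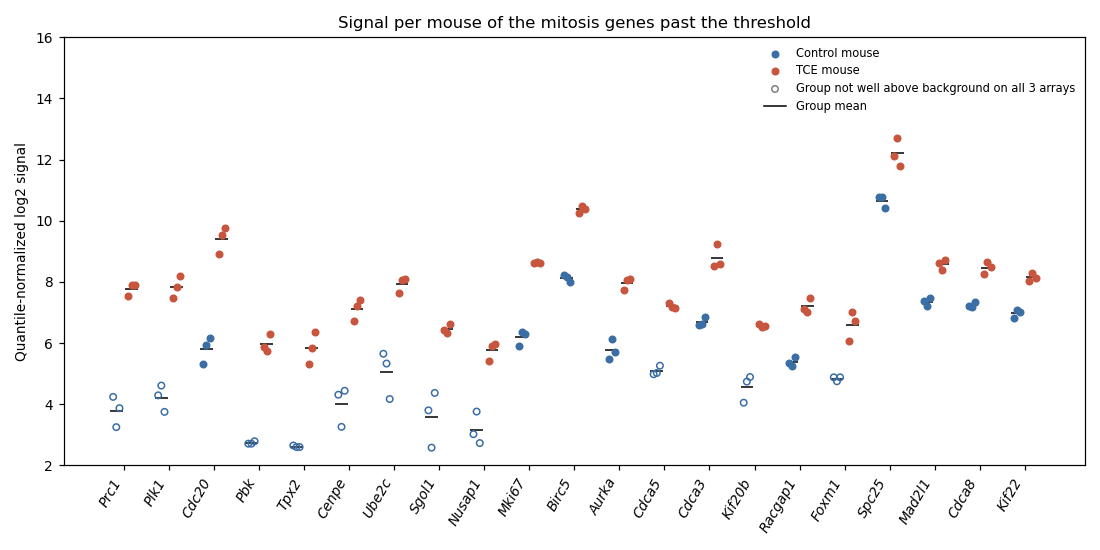
Quantile-normalized log2 signal (vertical axis) of the 21 mitosis genes past the threshold in each of 3 control and 3 TCE mice, ordered by difference, with bars at group means and open symbols for a group not well above background on all 3 of its arrays. All 3 TCE mice lie above all 3 control mice for each gene, an order that the threshold favours. Among genes with filled symbols in both groups the differences run from 1.17 for Kif22 to 3.59 for Cdc20.

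Kinetochore genes rose in part. Of 9, 5 could be tested and 2 were up-regulated, Spc25 and Cenpe. Here and for the roles below, such counts are to be read beside the 1.3% of all tested genes. They include genes that entered the test only through their TCE arrays. Spc25 is a subunit of the Ndc80 complex, which holds the microtubule. It read 10.76, 10.78 and 10.40 in control mice 1, 2 and 3 and 12.13, 12.70 and 11.78 in TCE mice 1, 2 and 3 (chr2:69031953-69032012). All TCE values lay above all control values, a log2 difference of 1.56 with a standard error (SE) of 0.25 (limma adjusted p = 0.0387), but the call was lost when any 1 of 5 of the mice was left out, with TCE mouse 3 the exception. Cenpe, a kinesin that carries chromosomes to the spindle equator, read 4.31, 3.26 and 4.44 in control mice, none of it well above background, and 6.71, 7.20 and 7.42 in TCE mice (chr3:134936387-134936446). It was at least 5.72-fold higher (limma adjusted p = 0.0145).

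The other kinetochore genes moved less or could not be measured. Cenpk, of the inner kinetochore, read 7.08, 6.97 and 7.04 in control mice and 7.83, 7.74 and 7.81 in TCE mice. These groups were narrow and apart, with a log2 difference of 0.76 and SE 0.10 (limma adjusted p = 0.0266), below 2-fold, and its second probe gave 0.83. Cenpa, the histone H3 variant that marks centromeres, read 7.36, 7.00 and 6.97 in control mice and 7.81, 8.30 and 7.96 in TCE mice, a difference of 0.91 that did not pass the test (limma adjusted p = 0.0686). Spc24, the partner of Spc25, had the smallest difference of those tested, 0.55 with SE 0.24 (limma adjusted p = 0.293), since TCE mouse 2 read 8.74, within the control range of 8.66 to 8.80, while the other TCE mice read 9.59 and 9.48. Cenpf, Ndc80 and Nuf2 gave no signal well above background, and their representative probes differed by 0.23, 0.73 and 0.99 with no test. The other Nuf2 probes, as dim, differed by 1.82 and by -0.01. Cenph was well above background only in control mouse 3 (6.72) and TCE mouse 1 (5.75).

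Of the 7 genes of the checkpoint and the APC/C, 4 could be tested and 3 were up-regulated. Cdc20, which activates the APC/C and is the target of the checkpoint, read 5.33, 5.92 and 6.18 in control mice and 8.92, 9.52 and 9.76 in TCE mice (chr4:118105534-118105593). The lowest TCE mouse was above the highest control mouse by far more than either group's SD of 0.43, and the log2 difference of 3.59 had an SE of 0.30 (limma adjusted p = 0.00508). It ranked 8 among all genes measured in every mouse. Ube2c, the ubiquitin-conjugating enzyme of the APC/C, read 5.65, 5.33 and 4.17 in control mice, the last not well above background, and 7.64, 8.05 and 8.09 in TCE mice. Its log2 difference was 2.88 with SE 0.39 (limma adjusted p = 0.0252), and a second probe rose by 2.55. Without any 1 of control mouse 2 and the 3 TCE mice, the representative probe lost its call.

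Mad2l1, encoding Mad2, the inhibitor of Cdc20 at unattached kinetochores, read 7.38, 7.22 and 7.46 in control mice and 8.63, 8.38 and 8.72 in TCE mice, a difference of 1.22 with SE 0.14 (limma adjusted p = 0.0145). Its groups were far apart, yet the call was lost when any control mouse or TCE mouse 1 was left out. Bub3, whose product binds Bub1 and BubR1, was the exception to the direction. It read 11.09, 10.95 and 10.88 in control mice and 10.89, 10.91 and 10.82 in TCE mice. These ranges overlapped, and the difference was -0.10 with SE 0.11 (limma adjusted p = 0.683). The checkpoint kinases were too dim to test. Bub1 gave no signal well above background (control 2.58, 2.67 and 3.03, TCE 3.72, 4.21 and 3.87). Bub1b was so in TCE mice 1 and 2 only, at 5.23 and 5.09. Ttk, the Mps1 kinase, was seen in TCE mouse 3 alone, at 8.14, where the other 5 mice read 2.85 to 3.04.

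The chromosomal passenger complex moves from centromeres to the central spindle. Of its 4 genes, 3 could be tested, and Birc5 and Cdca8 were up-regulated. Birc5, or survivin, read 8.21, 8.16 and 7.99 in control mice and 10.24, 10.49 and 10.38 in TCE mice (chr11:117716978-117717037). The groups were narrow and far apart, with a log2 difference of 2.25 and SE 0.12 (limma adjusted p = 0.00112). A further probe, dim in control mice, rose at least 4.16-fold, and the last one differed by 2.07 and did not pass (limma adjusted p = 0.100). Cdca8, or borealin, read 7.22, 7.19 and 7.34 in control mice and 8.26, 8.64 and 8.48 in TCE mice, a difference of 1.21 with SE 0.14 (limma adjusted p = 0.0145). It lost the call without any 1 of the control mice, and its dimmer second probe gave only 0.36 (limma adjusted p = 0.428). Incenp, the scaffold, read 8.13, 7.97 and 8.23 in control mice and 8.92, 8.85 and 8.89 in TCE mice. The difference of 0.78 with SE 0.12 (limma adjusted p = 0.0334) stayed below 2-fold, and a second probe gave 0.76. Aurkb, the kinase, gave no signal well above background on any array.

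Spindle genes counted 4 up-regulated of 5 tested, among 9. Aurka, the kinase of the spindle poles, read 5.47, 6.14 and 5.71 in control mice and 7.73, 8.05 and 8.11 in TCE mice (chr2:172181726-172181785). The groups were apart, with a log2 difference of 2.19 and SE 0.21 (limma adjusted p = 0.00752). Tpx2, which activates Aurka on the spindle, read 2.65, 2.60 and 2.60 in control mice and 5.31, 5.83 and 6.36 in TCE mice. It rose at least 2.35-fold (limma adjusted p = 0.00485), and the second probe was dim in every mouse. Nusap1, a microtubule-binding protein, read 3.02, 3.76 and 2.73 in control mice and 5.42, 5.89 and 5.96 in TCE mice. It was at least 2.24-fold higher (limma adjusted p = 0.0145), a call lost without control mouse 1 or TCE mouse 2. In both genes no control array was well above background. Kif22, a kinesin that pushes chromosome arms outward, read 6.83, 7.08 and 7.03 in control mice and 8.02, 8.30 and 8.13 in TCE mice, a difference of 1.17 with SE 0.13 (limma adjusted p = 0.0145), and lost the call without any 1 of the control mice.

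Hmmr, a spindle pole protein, was measured in every mouse and did not pass, with 7.75, 6.45 and 6.72 in control mice, 7.11, 7.66 and 7.49 in TCE mice and a difference of 0.44 with SE 0.35 (limma adjusted p = 0.562). Control mouse 1 was the highest of all 6. The remaining spindle motors and the centriole kinase Plk4 were too dim to test. Kif2c and Kif4 were well above background on 0 arrays, Kif11 was so in TCE mouse 3 only, and their differences were 0.96, 1.40 and 1.31. Plk4 was so in TCE mouse 1 only, at 5.00, where the other 5 mice read 2.50 to 2.52.

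Of 7 cytokinesis genes, 6 could be tested and 3 were up-regulated. Prc1 bundles microtubules of the central spindle. It read 4.24, 3.25 and 3.87 in control mice, none well above background, and 7.55, 7.91 and 7.89 in TCE mice (chr7:87461048-87461107). It was at least 9.11-fold higher (limma adjusted p = 0.00210). Racgap1, a subunit of centralspindlin, was measured in every mouse, with 5.36, 5.24 and 5.53 in control mice and 7.12, 7.01 and 7.48 in TCE mice (chr15:99451768-99451827). Its difference was 1.83 with SE 0.16 (limma adjusted p = 0.00657), and its second probe gave 1.83 too (limma adjusted p = 0.00996). Kif20b, a kinesin of the midbody, read 4.05, 4.74 and 4.89 in control mice and 6.61, 6.53 and 6.57 in TCE mice. It rose at least 3.60-fold (limma adjusted p = 0.0145) and lost the call without control mouse 2, TCE mouse 1 or TCE mouse 2.

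Kif20a and Ect2 did not pass the test. Kif20a, a kinesin that brings the passenger complex to the midzone, read 4.26, 5.14 and 3.52 in control mice and 7.01, 6.43 and 7.72 in TCE mice, a difference of 2.74 with SE 0.48 (limma adjusted p = 0.0502). Ect2, the exchange factor for RhoA, read 4.41, 4.14 and 5.75 in control mice and 6.40, 6.73 and 7.21 in TCE mice, a difference of 2.01 with SE 0.45 (limma adjusted p = 0.0924). Their TCE mice lay above their control mice, but each was well above background in only 1 control mouse, so that both differences rest on dim control values. A second Ect2 probe, dim in every mouse, differed by -0.07. Anln, an actin-binding protein of the contractile ring, was on all 6 arrays with 6.01, 5.43 and 5.76 in control mice and 6.63, 5.74 and 7.00 in TCE mice, overlapping groups and a difference of 0.72 (limma adjusted p = 0.330). Kif23, the partner of Racgap1 in centralspindlin, was well above background in control mouse 2 alone, at 5.94, and the other mice read 2.51 to 4.10.

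**Figure D4:**
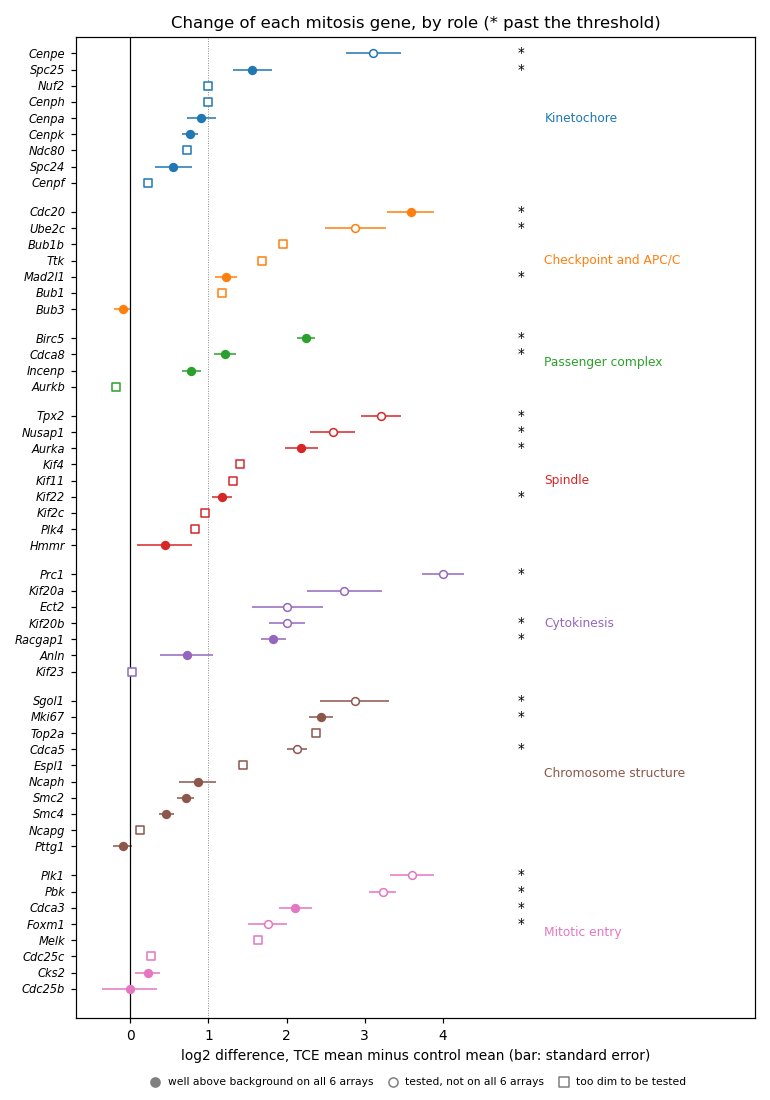
log2 difference (TCE mean minus control mean, horizontal axis) of each of the 54 mitosis genes by role, with standard errors for the genes tested, filled circles for genes well above background on all 6 arrays, open circles for other genes tested and squares for genes too dim to test. Asterisks mark the 21 genes past the threshold, which occur in every role.

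Chromosome structure and cohesion counted 10 genes, with 3 of 7 tested up-regulated. Mki67, the coat protein of mitotic chromosomes, read 5.89, 6.37 and 6.30 in control mice and 8.61, 8.66 and 8.63 in TCE mice (chr7:142884764-142884823). The TCE mice differed by an SD of only 0.03, and the difference was 2.44 with SE 0.15 (limma adjusted p = 0.00176), while the second probe gave 2.83 (limma adjusted p = 0.00163). Cdca5, or sororin, which protects cohesion, read 4.98, 5.02 and 5.26 in control mice, the first not well above background, and 7.31, 7.19 and 7.14 in TCE mice (chr19:6091709-6091768). Its groups were narrow, with a difference of 2.13 and SE 0.13 (limma adjusted p = 0.00151). Sgol1, or shugoshin, which shields centromeric cohesin, read 3.80, 2.58 and 4.37 in control mice and 6.43, 6.32 and 6.63 in TCE mice. It was at least 3.63-fold higher (limma adjusted p = 0.0336), and lost the call without control mouse 1 or any 1 of the TCE mice.

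The condensin genes differed by less. Smc2 read 6.67, 6.64 and 6.82 in control mice and 7.39, 7.38 and 7.49 in TCE mice, a difference of 0.71 with SE 0.11 (limma adjusted p = 0.0371), below 2-fold. Smc4, its partner, read 9.03, 8.94 and 8.99 in control mice and 9.43, 9.49 and 9.42 in TCE mice, groups that were apart by a difference of only 0.46 (limma adjusted p = 0.0922). Ncaph differed by 0.86 with SE 0.24 (limma adjusted p = 0.143), and Ncapg was well above background on 0 arrays. Pttg1, or securin, the inhibitor of separase and a substrate of the APC/C with Cdc20, did not pass the test. It read 12.36, 12.43 and 12.37 in control mice and 12.30, 12.14 and 12.42 in TCE mice, a difference of -0.10 with SE 0.12 (limma adjusted p = 0.705). Separase itself, Espl1, was also on 0 arrays, with 1.44 between the means. Top2a, the topoisomerase that unlinks sister chromatids, was well above background in TCE mouse 1 only, at 6.66, with 4.60 and 4.90 in TCE mice 2 and 3 and 2.90 to 3.14 in control mice, and was not tested.

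Of 8 genes of mitotic entry, 6 could be tested and 4 were up-regulated. Plk1, the kinase that acts from entry to cytokinesis, read 4.29, 4.61 and 3.75 in control mice, none well above background, and 7.47, 7.82 and 8.18 in TCE mice (chr7:129313220-129313279). It rose at least 9.17-fold (limma adjusted p = 0.00374). Pbk, a mitotic kinase, read 2.71, 2.71 and 2.79 in control mice and 5.88, 5.73 and 6.29 in TCE mice (chr14:66436224-66436283), and rose at least 2.58-fold (limma adjusted p = 0.00109). Neither gene was well above background in a control mouse. Cdca3, a trigger of mitotic entry, was measured in every mouse, with 6.58, 6.63 and 6.84 in control mice and 8.53, 9.24 and 8.60 in TCE mice. Its difference was 2.11 with SE 0.21 (limma adjusted p = 0.0103), and of the fits that left out a mouse, that without control mouse 2 lost the call. Foxm1, the transcription factor of G2 and M phase genes, read 4.88, 4.75 and 4.88 in control mice and 6.06, 7.03 and 6.71 in TCE mice. Only 2 control mice were well above background, so Foxm1 entered the test through its TCE arrays. Its difference was 1.76 with SE 0.25 (limma adjusted p = 0.0283). It lost the call in 5 of the 6 fits that left out a mouse, that without TCE mouse 1 excepted. A second Foxm1 probe, dim in every mouse, differed by 0.03.

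Cks2, a cyclin-dependent kinase subunit, and Cdc25b, a phosphatase that activates that kinase, were measured in every mouse with overlapping groups. Cks2 read 8.23, 8.41 and 8.57 in control mice and 8.58, 8.43 and 8.85 in TCE mice, a difference of 0.22 (limma adjusted p = 0.521). Cdc25b read 5.08, 5.21 and 6.38 in control mice and 5.68, 5.31 and 5.66 in TCE mice, a difference of -0.01 with SE 0.35 (limma adjusted p = 0.994), which became 0.40 without control mouse 3. Cdc25c and the kinase Melk were well above background on 0 arrays. For Melk the groups were apart, with a difference of 1.63 between means of 2.76 ± 0.07 and 4.38 ± 0.22 (SD, n = 3 each).

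**Figure D5:**
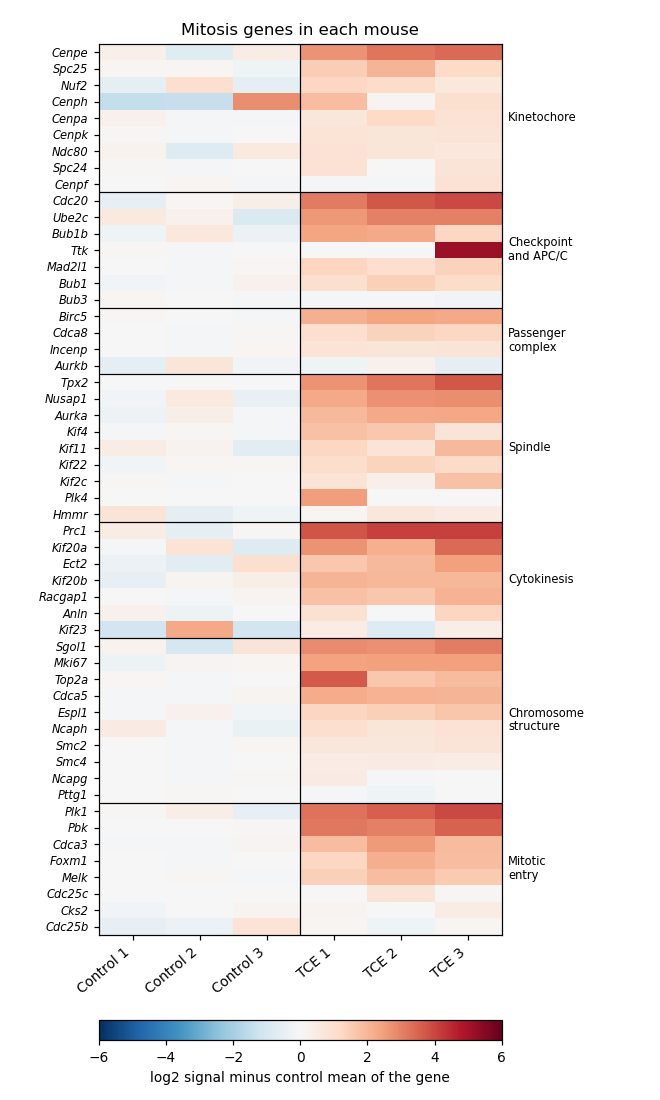
log2 signal of each of the 54 mitosis genes (vertical axis, by role) in each of the 6 mice (horizontal axis) minus the gene's control mean, in colour. Ttk and Plk4 stand out in 1 TCE mouse each, and Cenph, Kif23, Hmmr, Bub3, Aurkb, Pttg1 and Cdc25b are highest in a control mouse. The genes past the threshold are high in all 3 TCE mice, a pattern that the threshold favours.

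The roles could be set side by side over the genes measured in every mouse. The median log2 difference was 0.84 for 4 kinetochore genes, 1.22 for 3 checkpoint genes, 1.21 for 3 passenger genes, 1.17 for 3 spindle genes, 1.27 for 2 cytokinesis genes, 0.71 for 5 chromosome genes and 0.22 for 3 entry genes. Within roles the values ran from 0.55 to 1.56 for the kinetochore, from -0.10 to 3.59 for the checkpoint, from 0.78 to 2.25 for the passenger complex and from 0.44 to 2.19 for the spindle. For cytokinesis they ran from 0.72 to 1.83, for the chromosomes from -0.10 to 2.44 and for entry from -0.01 to 2.11. In the same order of roles, 1, 2, 2, 2, 1, 1 and 1 of these genes were up-regulated, beside 0.905% of all genes measured in every mouse. The ranges of all 7 roles overlapped, and no difference between roles was tested.

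The calls of 10 genes held whichever mouse was left out, namely Cdc20, Birc5, Tpx2, Aurka, Prc1, Racgap1, Mki67, Cdca5, Plk1 and Pbk, and the other 11 lost theirs in at least 1 fit. Of the genes named, Tpx2, Prc1, Plk1 and Pbk had no control array well above background, and Cdca5 only some. Their calls rest on dim control values. The fits that left out a mouse kept the probes chosen with every array, so they did not test that choice. The count of 21 fell to 13 without control mouse 2. With normexp background correction in place of the processed signal it was 12, and Tpx2, Racgap1 and Pbk were among those lost.

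A further list of mitosis genes, 109 of them on the array and none among the 54, was followed in the same way. Of the 109, 72 could be tested, and limma gave 6 as up-regulated, beside 1.3% of all tested genes, and 0 as down-regulated. At an unadjusted p under 0.05 by limma, 28 of the 72 were higher and 1 lower, beside 12.0% and 7.11% of all tested genes. The methods' t-test gave 24 and 1. The list was written from textbook knowledge and holds subunits of the kinetochore, the APC/C, cohesin and the spindle. Its median log2 difference was 0.31, and 0.25 over the 63 genes measured in every mouse, compared with 0.02 for all such genes. With genes dim in a whole group set at their limit, or at 0 where they had none, the median of the 109 was 0.11. Tacc3, a spindle protein that works with Aurka, was the only one of the 63 past the threshold, a share to be read beside the 0.905% of all genes measured in every mouse, with 7.52, 7.31 and 7.32 in control mice and 8.61, 8.53 and 8.69 in TCE mice, a difference of 1.22 (limma adjusted p = 0.00842). The other 5 were not well above background in every control mouse and entered the test through their TCE arrays. The spindle pole protein Aspm was at least 2.65-fold higher, Cenpp of the inner kinetochore at least 3.08-fold, and Cdca2, which directs a phosphatase to chromosomes, at least 1.80-fold. Shcbp1 of the midbody and Zwilch of the kinetochore, each with some control arrays above background, differed by 2.34 and 1.59. The 16 further genes of the checkpoint and the APC/C had a median of 0.08, with 0 of 15 tested past the threshold by limma. At an unadjusted p under 0.05 by limma, 2 of the 15 were higher, near the 12.0% of all tested genes, and 0 lower. The methods' t-test gave 3 and 0. Without control mouse 3 or TCE mouse 1 the count of 6 was 2, and without control mouse 2 it was 3.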

How the data were processed

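Liver RNA of 6 mice was hybridized to Agilent mouse 8x60K 1-colour arrays (Cy3). The intensity values deposited by the authors are processed spot signals of Feature Extraction 10.7.1.1, background-subtracted within each array, with probe positions on mm9. A further table holds the authors' quantile-normalized log2 means per group, used as an alternative and for gene symbols. Its columns of fold changes and p-values were not used.

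Here log2 signals were averaged per probe without outlier spots and then quantile-normalized. They were tested with limma 3.58.1 (lmFit, eBayes, two-sided, R 4.3.3), with Benjamini-Hochberg adjustment over 22736 probes. A gene was represented by its probe with the highest mean signal. The script was tested on simulated data. Groups and mouse numbers came from the labels. The deposited files are numbered differently from the sample titles, and each was assigned through its GEO record. The named genes are the 54 members by role, with full values for each gene past the threshold and the extremes of each role, up to 8 genes of the further list, and markers past the threshold or not above background. Members and lists were chosen with earlier results of these data known. The number of arrays limits the precision, and nothing states litters, so p-values measure the spread between these mice. No mm9 gene models were used, so exons are not given for probes. Single values of some marker genes are not reported here.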

Additional observations from a re-analysis of the deposited data

How the results depend on the processing

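The 21 mitosis genes past the threshold became 12 with normexp background correction, 10 with no filter on dim probes and 10 with only probes well above background on all 6 arrays. With the replicate block the count was 9. The deviations of same-numbered mice had correlations of 0.090, 0.007 and -0.092, which show no pairing but cannot exclude one. The methods' t-test gave 23 at an unadjusted p of 0.05 and 4 after Benjamini-Hochberg adjustment, slide as a block gave 14, and leaving out 1 mouse gave 13 to 18. Of the further list, 6 genes became 1 with normexp, 3 with no filter, 1 with probes on all 6 arrays, 2 with the replicate block, 1 by the adjusted t-test and 2 to 6 with a mouse left out. The median of 1.27 was 0.60 with normexp and 0.86 over probes on all 6 arrays, and 1.20 to 1.41 with a mouse left out. The 38 genes with groups apart were 34 with normexp. On all 6 arrays they became 16, out of only the 23 genes measured there. With a mouse left out they were 39 to 41, but groups of fewer mice lie apart more easily. The difference of Cdc25b, -0.01, ran from -0.25 to 0.40 with a mouse left out, reversing without control mouse 3 (0.40) and without TCE mouse 2 (0.11). No member past the threshold turned direction. Apart from fewer genes or mice in a fit, the cause was not tested. Signal over background limits the 18 members that could not be tested.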
